A study of Mus musculus with 5 samples.

Results

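Immediate early genes are transcribed within minutes of a stimulus, from factors already present in the cell, and most of them encode short-lived transcription factors. Of the 10 described here, *Fos*, *Fosb*, *Jun*, *Junb* and *Atf3* encode basic leucine zipper proteins, the first 4 of them subunits of the activator AP-1. *Egr1* and *Egr2* encode zinc finger factors, *Nr4a1* the orphan nuclear receptor NUR77, *Ier2* a nuclear protein, and *Dusp1* a phosphatase that turns off MAP kinases. Their promoters are known to respond to serum response factor and its ternary complex partners, to CREB and, for *Nr4a1* and *Jun*, to MEF2 factors, which are held in check by class IIa histone deacetylases until calcium or MAP kinase signals arrive. In lymphocytes *Nr4a1* is widely used as a readout of antigen receptor signalling. The genes were chosen by symbol, and each of these 10 of 17323 genes was read by 1 of the 23809 probe sets tested, of which 17621 carried 1 gene symbol, 516 several and 5672 none here.

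RNA of pro-B cells was hybridised to 5 Affymetrix arrays, 2 from *Mef2c*-deficient and 3 from control mice, all 9 months of age. *Mef2c*-deficient mice were Vav-Cre *Mef2c* fl/fl, in which Cre acts in blood-forming cells and deletes the gene before the B lineage begins, so the deletion was not limited to pro-B cells. Control mice had at least 1 working copy of *Mef2c* in their blood cells. Per the methods they were floxed on both alleles (*Mef2c* fl/fl) without Cre, heterozygous (*Mef2c* fl/+) without Cre, or heterozygous with Vav-Cre, and the labels do not tell which of these a control array came from. Pro-B cells were gated as B220+IgM-CD43+CD24+ and sorted from fresh bone marrow. The methods call the sorted samples independent, but neither they nor the labels state that each array came from another mouse, so the p-values measure the spread between these arrays, which may be technical in part.

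*Mef2c* itself had a deposited intensity of 7379 and 6219 on the *Mef2c*-deficient arrays, against 14006, 20854 and 17220 on the control arrays, though no source used here says whether its probe set reads the floxed exon. Array medians were 238 and 203 on *Mef2c*-deficient and 188, 193 and 181 on control arrays. All 9 measured early B-cell markers of 12 listed, *Cd79a*, *Igll1* and *Rag1* among them, were above the array median on every array. All 11 neutrophil and monocyte markers were above the array median on every array too, and they summed to 2501519 and 5721608 in *Mef2c*-deficient and to 4478530, 4840484 and 2324939 in control pro-B cells. *Mef2c*-deficient replicate 2 stood apart, with 62818 as the sum of 9 T and NK cell markers, against 12605 on *Mef2c*-deficient replicate 1 and 7346, 9383 and 20628 on the control arrays. Of the early B-cell markers it had the lowest *Ebf1*, *Blnk*, *Vpreb3* and *Il7r* values. Its *Cd79a*, *Cd79b*, *Igll1*, *Dntt* and *Rag1* values were not the lowest. Where a call or direction changed without this array, the value is given for the immediate early genes introduced above and for called list genes. For list genes that were not called, among them *Tnfaip3*, *Dusp2*, *Dusp5* and *Jdp2*, no such value is given. Their direction may differ without this array. In bulk RNA fewer cells of a type and less RNA per cell cannot be told apart. The deposited scale seems to have been made by exponentiating log2 signals with base e in place of base 2, so a 2-fold change in deposited intensity stands for 1.62-fold in signal. Fold changes below are of deposited intensities unless named as signal.

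*Nr4a1* was lower in *Mef2c*-deficient pro-B cells, and the other 9 genes did not pass the thresholds. A gene was called lower or higher at a fold of at least 2 in deposited intensity, or 1.62 in signal, and an unadjusted limma p of at most 0.05. The study names the same fold of 2 and p of 0.05. If its fold was of signal, the calls here are looser. Of the 10 genes 1 was called lower and 0 higher, where 13.5% of all probe sets were called lower and 10.1% higher, so the count of 1 is close to the share over all probe sets. At a fold of at least 2 in signal *Nr4a1* was again the 1 gene called, beside 8.51% of all probe sets called lower and 4.57% higher. No limma adjusted p was under 0.05 for the 10 genes or for any of the 23809 probe sets, of which 29.6% had an unadjusted limma p under 0.05. That count of 0 probe sets became 2524 without *Mef2c*-deficient replicate 2 and 1386 without *Mef2c*-deficient replicate 1, fits in which the lone *Mef2c*-deficient array is assumed to vary like the control arrays, and 9004 with each array centred on housekeeping genes. The log2 fold change was negative for 8 of the 10 genes, with a median of −1.18, where the median of all probe sets was 0.19 and 43.6% were negative. These shares were not matched for brightness. *Fos*, *Jun* and *Dusp1* were among bright probe sets with a median of −0.90, and *Egr1* and *Ier2* among those with −1.07. The median of the 10 genes was positive without *Mef2c*-deficient replicate 2. The 2 groups of arrays did not overlap for 1 gene, *Nr4a1*, where 23.5% of all probe sets were lower without overlap.

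**Figure D1:**
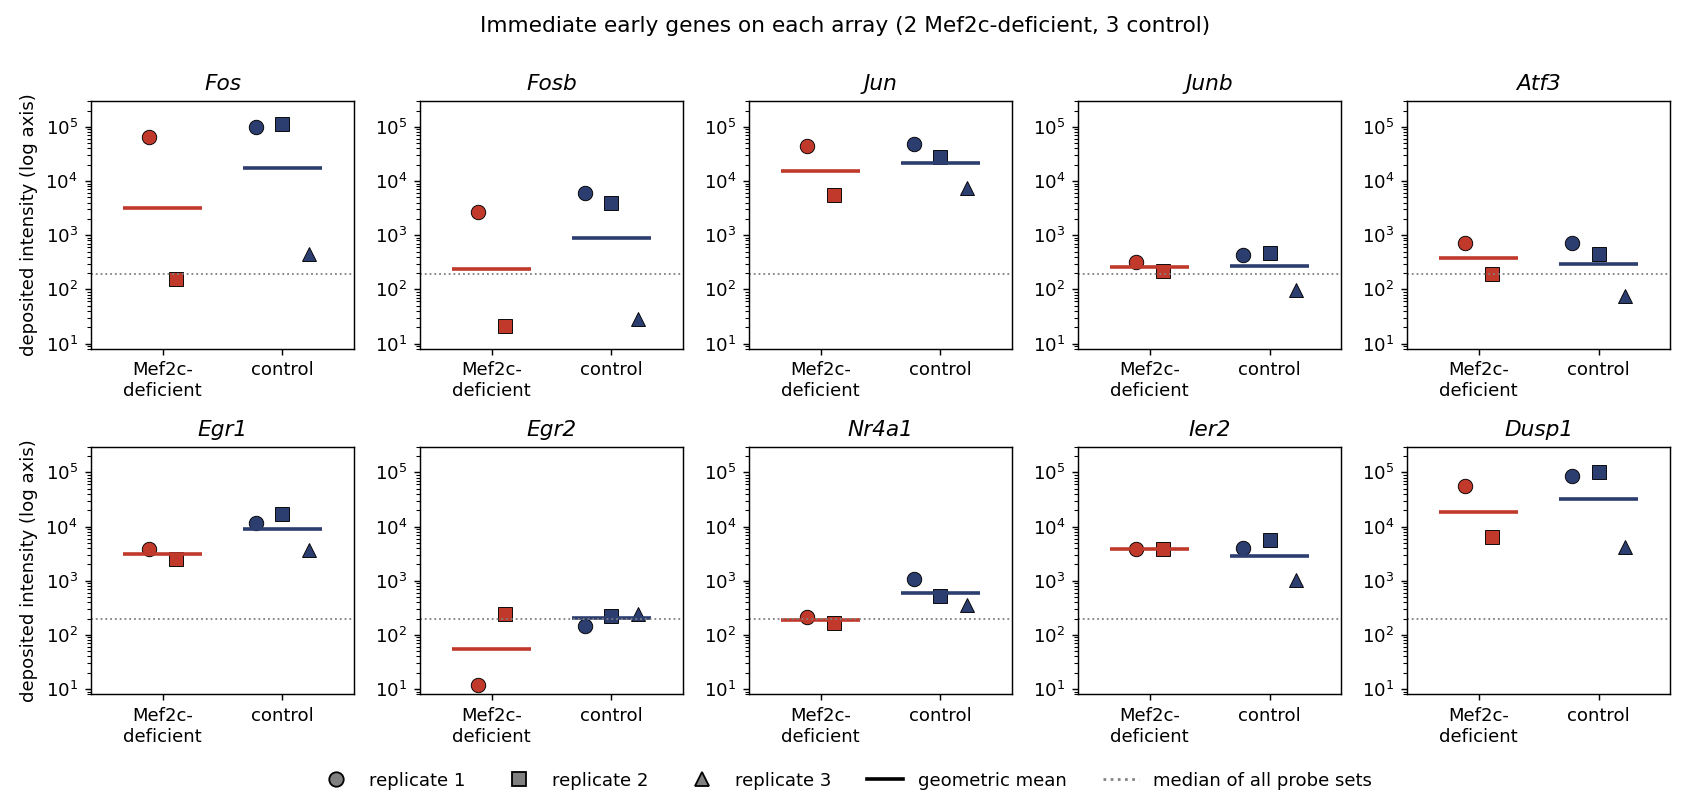
Deposited intensity (vertical log axis) of the 10 immediate early genes on each array, *Mef2c*-deficient (red, n = 2) left of control (blue, n = 3), with symbols for the replicate number, bars for the geometric mean and a dotted line for the median over arrays of the array median. Both *Mef2c*-deficient arrays lie below all 3 control arrays for *Nr4a1*, while *Fos*, *Fosb*, *Jun*, *Atf3* and *Dusp1* are high on *Mef2c*-deficient replicate 1 and control replicates 1 and 2 and low on *Mef2c*-deficient replicate 2 and control replicate 3.

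*Nr4a1* had deposited intensities of 214 and 165 on the *Mef2c*-deficient arrays, against 1081, 513 and 362 on the control arrays. The means were 189.7 ± 34.9 (SD, n = 2) in *Mef2c*-deficient and 652 ± 379 (SD, n = 3) in control pro-B cells. Both *Mef2c*-deficient arrays were thus below the lowest control array, and the 3 control arrays differed among themselves more than the 2 *Mef2c*-deficient arrays did. The log2 fold change was −1.64 (standard error 0.53, 95% confidence interval −3.0 to −0.28), with an unadjusted limma p of 0.0272 and a limma adjusted p of 0.135. This is 3.11-fold lower in deposited intensity and 2.20-fold lower in signal. Both *Mef2c*-deficient values were just below the array median, where background may limit the fold, which was not tested. The log2 fold change was negative in each of 15 alternative settings, between −2.04 and −0.87, with adjusted p-values between 0.0865 and 0.363. A filter on dim probe sets, 1 probe set per gene, a fold in signal and the unpaired test leave every log2 fold change unchanged. Under these alternatives the sign of *Nr4a1* could not differ. Since the groups did not overlap, it could not differ with array weights, the replicate block or 1 array left out either. Only the 4 other scalings of the arrays could have changed it. The call was lost with centring on housekeeping genes (−0.87), with array weights (−2.04) and with the unpaired test of the methods. It was also lost without control replicate 2 (−1.73), *Mef2c*-deficient replicate 1 (−1.83) or *Mef2c*-deficient replicate 2 (−1.45).

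Fold changes varied with brightness over the whole array. With all probe sets placed in 10 groups of rising mean intensity, the dimmest group had a median log2 fold change of 0.56 and the brightest of −0.90. *Nr4a1* was in group 6, whose median was 0.36 and in which 9.12% of probe sets were called lower. *Junb* and *Atf3*, in the same group, had log2 fold changes of −0.049 and 0.35. *Fos*, *Jun* and *Dusp1* were in group 10, *Egr1* and *Ier2* in group 9 with a median of −1.07, *Fosb* in group 7 with −0.20 and *Egr2* in group 5 with 0.47. *Egr1*, at −1.56, and *Fos*, at −2.41, therefore stood among bright probe sets that were mostly lower, whereas *Ier2*, at 0.41, did not follow the median of its group.

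**Figure D2:**
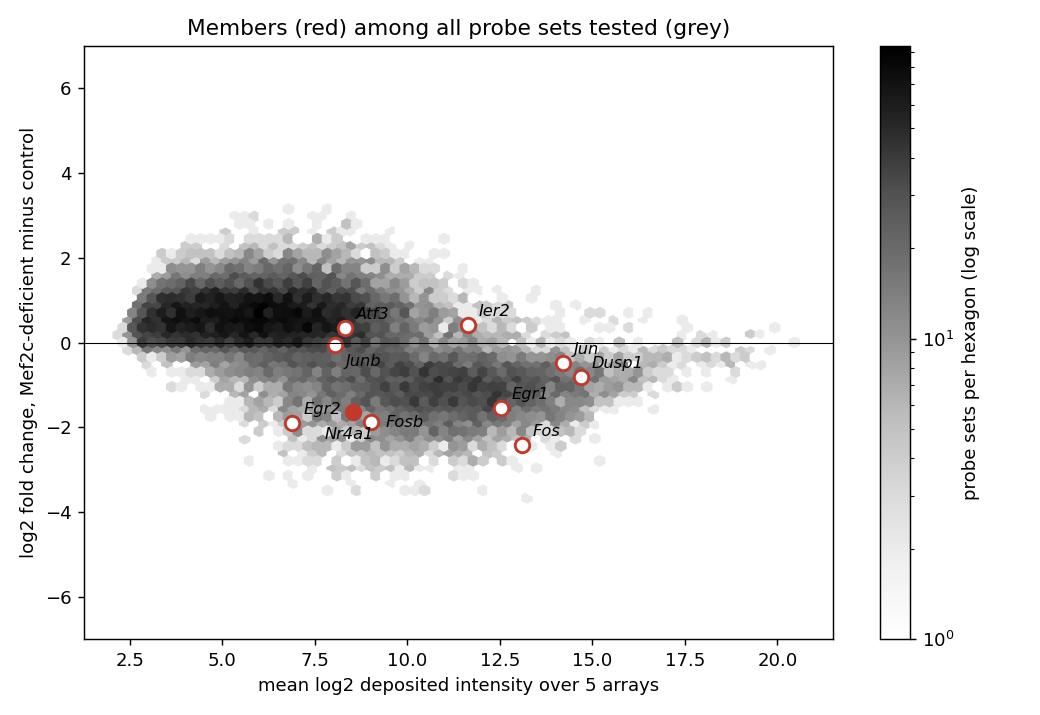
Log2 fold change, *Mef2c*-deficient minus control (vertical axis), against the mean log2 deposited intensity over 5 arrays (horizontal axis) for 23809 probe sets (grey hexagons, darker with more probe sets) and the 10 immediate early genes (red circles, filled where called). Dim probe sets lie mostly above and bright ones mostly below 0, and *Nr4a1*, at −1.64, is the filled circle.

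The *Nr4a1* promoter is shown because *Nr4a1* was the gene called and its promoter is known to carry CREB response sequences close to the start of transcription. In the 250 bases before the start given by RefSeq, at chr15:101266596-101266845 on the + strand of GRCm38.p6 and inside the annotated gene (chr15:101253902-101274795), the CRE half-site TGACG stood 4 times, each on the opposite strand and so read as CGTCA (in capitals).
Nr4a1: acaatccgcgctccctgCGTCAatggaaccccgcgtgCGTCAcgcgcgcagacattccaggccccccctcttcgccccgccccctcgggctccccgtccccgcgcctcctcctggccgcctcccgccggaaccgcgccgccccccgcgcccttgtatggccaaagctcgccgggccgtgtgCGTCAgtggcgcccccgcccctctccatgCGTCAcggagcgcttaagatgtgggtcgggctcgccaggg
The half-site, which full CREs also hold, stood in 20.8% of the 32851 promoter windows of the mouse. Each window was 300 bases long and read on both strands. By gene, with a match in any window, the half-site stood in 23.0% of 27025 genes. It stood in 7 of the 8 immediate early genes with a window. No window was given for *Ier2* and *Egr1*. The EGR site GCGNGGGCG was in the windows of *Nr4a1* and *Fosb*, against 5.55% of all windows and 6.27% of genes. The MEF2 site, which stood in 3.19% of all windows, was not found in that of *Nr4a1*, and bases outside the window were not searched. A match is only a run of letters, and no binding was measured.

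The 5 genes whose pattern over the arrays was nearest to that of *Nr4a1* were found by the distance between log2 values centred over the 5 arrays, among genes whose mean was above the median of all probe sets. *Neil3*, a DNA glycosylase, was nearest, at a distance of 0.16, with 142 and 104 in *Mef2c*-deficient and 662, 357 and 224 in control pro-B cells. *Slc38a10*, a putative amino acid transporter, followed at 0.37, *Shmt1*, an enzyme of serine and folate metabolism, at 0.49, *Rasal1*, a Ras GTPase activating protein, at 0.49 and *Sap30l*, a homologue of a subunit of the SIN3 histone deacetylase complex, at 0.54. All of these were highest on control replicate 1 and lower on both *Mef2c*-deficient arrays than on any control array. Among the 10 immediate early genes *Egr1* was nearest to *Nr4a1*, at a distance of 1.38.

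The NR4A and EGR relatives did not move as 1 group. Of 7 genes measured of 7 listed, 2 were called lower, 1 higher and 4 were not called, with a median log2 fold change of −0.21. *Nr4a2*, which encodes the receptor NURR1, had 14.96 and 47.4 in *Mef2c*-deficient and 174, 68.5 and 68.5 in control pro-B cells (log2 fold change −1.81, standard error 0.70, limma adjusted p = 0.167), but it was below the array median on all 5 arrays. The third receptor gene, *Nr4a3*, was not called and had 514 and 223 in *Mef2c*-deficient against 188, 188 and 130 in control pro-B cells (log2 fold change 1.03, limma adjusted p = 0.197). *Nab1*, a corepressor of EGR proteins, was lower, with 3292 and 2294 in *Mef2c*-deficient against 6418, 4847 and 12140.2 in control pro-B cells (log2 fold change −1.40, standard error 0.47, limma adjusted p = 0.144). *Wt1*, a related zinc finger factor, was called higher at 1.48 but was dim on all 5 arrays, at 48.8 and 21.5 in *Mef2c*-deficient and 10.6 to 12.5 in control pro-B cells. *Egr3* was not called and had 573 on control replicate 3, against 56.3 and 36.9 on the *Mef2c*-deficient and 48.8 and 43.3 on the other control arrays. The call of *Nr4a2* was kept in 6 of 14 alternative settings, that of *Nab1* in 5 of 15 and that of *Wt1* in 8 of 14, and none of the 3 changed sign. Their groups did not overlap, so only another scaling of the arrays could have changed a sign. *Nab1* was not called without control replicate 1 (−1.48), *Mef2c*-deficient replicate 1 (−1.66) or *Mef2c*-deficient replicate 2 (−1.13), and its log2 fold change came closest to 0 after cyclic loess (−0.41). *Nr4a2* was not called without control replicate 1 (−1.36), 2 (−2.04) or 3 (−2.04) or *Mef2c*-deficient replicate 1 (−0.98), and *Wt1* was not called without control replicate 1 (1.49) or 3 (1.41) or *Mef2c*-deficient replicate 1 (0.88).

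*Egr1* had 3922 and 2473 on the *Mef2c*-deficient arrays, against 11826, 17269 and 3751 on the control arrays. Control replicate 3 was below *Mef2c*-deficient replicate 1, so the groups overlapped by this 1 array. The log2 fold change of −1.56 (standard error 0.73, 95% confidence interval −3.43 to 0.32) was a 2.94-fold difference in deposited intensity, with an unadjusted limma p of 0.0863 and a limma adjusted p of 0.216. Without control replicate 3 *Egr1* was called lower, at −2.20, and the same held with each array centred on its median, at −1.79. *Egr2* had 11.9 and 248 on the *Mef2c*-deficient arrays, against 149, 222 and 246 on the control arrays. Its log2 fold change of −1.89 (standard error 1.31, limma adjusted p = 0.326) rested on *Mef2c*-deficient replicate 1, since it was 0.30 without that array and −4.08 without *Mef2c*-deficient replicate 2, where *Egr2* was called lower (limma adjusted p = 0.0454).

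The AP-1 genes differed more between arrays of 1 genotype than between genotypes. *Fos* had 66266 on *Mef2c*-deficient replicate 1 but 158 on *Mef2c*-deficient replicate 2, against 98759 and 113716 on control replicates 1 and 2 and 456 on control replicate 3. The highest control array was 249.4-fold above the lowest, which is 45.9-fold in signal, and *Mef2c*-deficient replicate 1 was 419-fold above replicate 2, which is 65.7-fold in signal. Each genotype thus held arrays with bright and with dim *Fos*, and on *Mef2c*-deficient replicate 2 it was below the array median. The means were 33212 ± 46745 (SD, n = 2) in *Mef2c*-deficient and 70977 ± 61529 (SD, n = 3) in control pro-B cells. Its log2 fold change, −2.41, had a standard error of 3.67 and a 95% confidence interval of −11.88 to 7.05, with an unadjusted limma p of 0.54, and it was 1.94 without *Mef2c*-deficient replicate 2.

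*Fosb*, which encodes another partner of JUN, had the same arrays high and low. It had 2723 and 20.7 on the *Mef2c*-deficient arrays, against 5920, 3902 and 28.6 on the control arrays (log2 fold change −1.88, standard error 3.23, limma adjusted p = 0.671). Control arrays differed up to 207-fold and the *Mef2c*-deficient arrays 131-fold, which is 40.3-fold and 29.4-fold in signal. *Jun*, whose product pairs with FOS proteins, had 44132 and 5497 on the *Mef2c*-deficient arrays, against 49019.7, 27669.7 and 7469 on the control arrays. It was again lowest on *Mef2c*-deficient replicate 2 and control replicate 3, by 8.03-fold from the other *Mef2c*-deficient array and by 6.56-fold from the highest control array. Its log2 fold change was −0.47 (standard error 1.21, limma adjusted p = 0.777), positive under 5 of the 15 alternatives. *Atf3*, a leucine zipper factor of the stress response, had 723 and 192 on the *Mef2c*-deficient arrays, against 733, 445 and 76.2 on the control arrays, and its log2 fold change was 0.35 (standard error 1.16, limma adjusted p = 0.829). *Junb* varied less, with 318 and 214 on the *Mef2c*-deficient arrays, against 423, 474 and 97.96 on the control arrays (log2 fold change −0.049, standard error 0.79, limma adjusted p = 0.969).

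*Dusp1*, whose product inactivates p38, JNK and ERK kinases, had 56172 and 6298 on the *Mef2c*-deficient arrays, against 84817, 100802 and 4188 on the control arrays. The high arrays were the same as for *Fos*, and the ratios of 8.92 between the *Mef2c*-deficient arrays and 24.1 between the highest and the lowest control array were smaller than for *Fos*. The log2 fold change was −0.81 (standard error 1.77, limma adjusted p = 0.740), and it was 0.16 after cyclic loess and 0.77 without *Mef2c*-deficient replicate 2. *Ier2* did not share this pattern. It had the same deposited intensity of 3796 on both *Mef2c*-deficient arrays, against 4086, 5593 and 1029.8 on the control arrays, so only control replicate 3 was low (log2 fold change 0.41, standard error 0.79, limma adjusted p = 0.706). Ties of this kind were common in the deposited values, where 42.8% of probe sets had the same value on at least 2 arrays.

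The standard deviation between arrays of the same genotype, on the log2 scale, put numbers on this spread. It was 5.14 for *Fos*, larger than for 99.996% of all probe sets, and 4.52 for *Fosb*, larger than for 99.98%. *Dusp1* had 2.47, *Egr2* 1.82, *Jun* 1.67 and *Atf3* 1.604, each larger than for at least 97.8% of probe sets. *Junb* and *Ier2* had 1.06 each, *Egr1* 0.98 and *Nr4a1* 0.68, the smallest of the 10 genes. The median over the 10 genes was 1.64, against 0.46 over all probe sets.

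**Figure D3:**
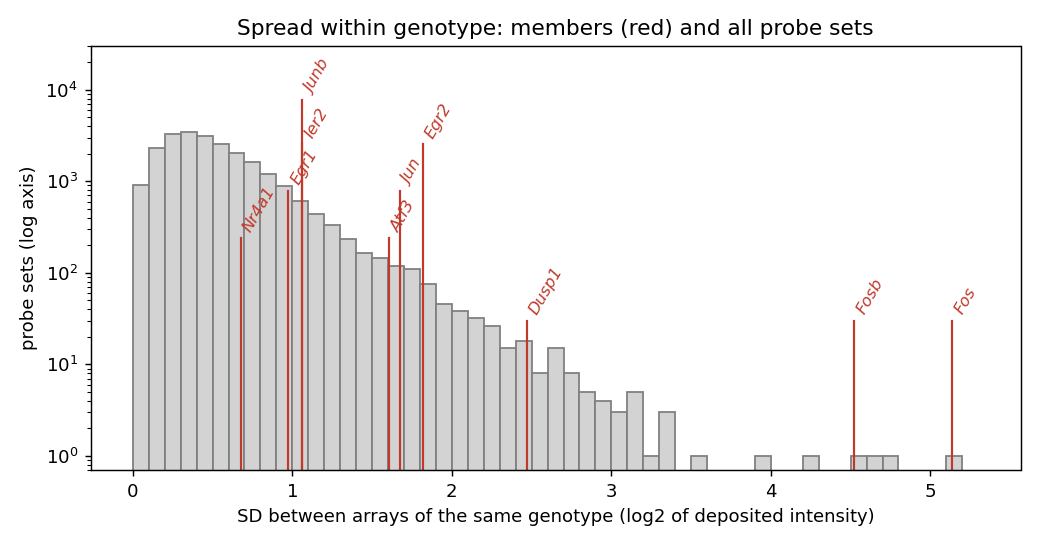
Number of probe sets (vertical log axis) by the SD between arrays of the same genotype, on the log2 scale (horizontal axis), for 23809 probe sets (grey bars of width 0.1), with a red line at each immediate early gene whose height carries no meaning. *Fos*, at 5.14, and *Fosb*, at 4.52, lie at the far right, *Junb* and *Ier2* share 1 line at 1.06, and *Nr4a1*, at 0.68, lies nearest to the bulk.

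The promoters of *Fos*, *Dusp1*, *Jun* and *Atf3* are shown because these genes were high and low on the same arrays. Each run holds the 250 bases before the start given by RefSeq on GRCm38.p6, read along the gene. *Fos* lies at chr12:85473640-85473889 on the + strand, with 2 CRE half-sites in capitals, and *Dusp1* at chr17:26508473-26508722 on the - strand, with the full CRE TGACGTCA in capitals. *Jun* lies at chr4:95052223-95052472 on the - strand and *Atf3* at chr1:191183334-191183583 on the - strand, each with a MEF2 site in capitals.
Fos: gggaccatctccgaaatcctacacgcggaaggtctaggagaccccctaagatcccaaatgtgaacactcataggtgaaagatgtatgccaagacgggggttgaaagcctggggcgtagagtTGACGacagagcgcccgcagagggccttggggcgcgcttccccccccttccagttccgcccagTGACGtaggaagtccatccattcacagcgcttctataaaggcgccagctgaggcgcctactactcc
Dusp1: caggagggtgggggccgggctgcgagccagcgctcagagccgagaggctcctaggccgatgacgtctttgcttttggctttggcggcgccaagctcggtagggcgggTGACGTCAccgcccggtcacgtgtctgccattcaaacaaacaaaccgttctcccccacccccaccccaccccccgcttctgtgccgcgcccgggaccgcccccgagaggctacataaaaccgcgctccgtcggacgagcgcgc
Jun: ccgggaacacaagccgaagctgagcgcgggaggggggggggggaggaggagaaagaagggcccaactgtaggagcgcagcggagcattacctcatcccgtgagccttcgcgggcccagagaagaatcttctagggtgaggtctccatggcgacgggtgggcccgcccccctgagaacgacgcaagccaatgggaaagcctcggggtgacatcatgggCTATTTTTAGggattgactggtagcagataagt
Atf3: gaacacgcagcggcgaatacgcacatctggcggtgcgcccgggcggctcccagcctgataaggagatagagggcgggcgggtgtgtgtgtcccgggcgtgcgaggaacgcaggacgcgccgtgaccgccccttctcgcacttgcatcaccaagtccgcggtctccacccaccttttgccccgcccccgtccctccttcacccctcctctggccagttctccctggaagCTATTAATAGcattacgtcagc
The MEF2 site stood from base −33 to −24 before the start of *Jun* and from −22 to −13 before that of *Atf3*. It was in 3.19% of all windows and 3.7% of genes. The full CRE stood in *Dusp1* alone of the 8 genes with a window, against 1.79% of windows and 2.03% of genes. The CArG box, which serum response factor binds, was found in *Egr2* alone, which had 5 windows. It was in 1.63% of all windows and 1.81% of genes. The AP-1 site TGANTCA was in none of the 8 genes, against 7.81% of windows and 8.97% of genes. The CRE half-site was in the windows of *Fos*, *Dusp1* and *Atf3*, and of *Fosb*, but not in that of *Jun*. No motif searched was thus common to all 4 genes in these windows. Sites outside the windows were not searched, and a window without a match says only that these letters are not in it.

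The genes nearest to *Fos* over the arrays were *Fosb*, at a distance of 1.49, *Cxcl2*, at 4.34, *Cd69*, at 4.90, *Dusp1*, at 5.12, and *Ccl3*, at 5.18. *Cxcl2* and *Ccl3* encode chemokines, and *Cd69* an early activation antigen of lymphocytes. *Cd69* had 20809 and 1087 on the *Mef2c*-deficient arrays, against 20128, 15335 and 1069 on the control arrays. *Cxcl2* had 173 and 19.0 on the *Mef2c*-deficient arrays, against 3041, 10093 and 15.6 on the control arrays. *Ccl3* had 464 and 104 on the *Mef2c*-deficient arrays, against 2708, 7682 and 118 on the control arrays. All 3 were therefore low on *Mef2c*-deficient replicate 2 and control replicate 3, and both chemokine genes were also higher on control replicates 1 and 2 than on *Mef2c*-deficient replicate 1. *Ppp1r15a*, a stress-induced regulator of protein synthesis named here after its values were seen, had 10550.0 and 621 on the *Mef2c*-deficient arrays, against 7232, 5134 and 725 on the control arrays.

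Values of other genes on the 2 arrays with low *Fos* did not run one way. The neutrophil and monocyte sum was highest on *Mef2c*-deficient replicate 2 and lowest on control replicate 3, so those arrays stood at opposite ends. The T and NK cell sum was highest on these 2 arrays, but on control replicate 3 *Cd2* alone made up 18159.9 of the 20628. The early B-cell sum was 563433 on *Mef2c*-deficient replicate 2 and 1188581 on control replicate 3, against 746275 on *Mef2c*-deficient replicate 1 and 661772 and 520730.3 on control replicates 1 and 2. The part that other cell types had in the *Fos* pattern was not tested.

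Other immediate early genes, 29 measured of 30 listed, were called lower in 2 cases and higher in 2, with 25 not called and a median log2 fold change of −0.094. *Myc*, which encodes a driver of growth and proliferation, was lower, with 5783 and 7696 in *Mef2c*-deficient against 50347, 41281 and 22264 in control pro-B cells. Its log2 fold change was −2.43 (standard error 0.43, limma adjusted p = 0.102), and the call was kept in all 15 alternatives. *Per1*, a clock gene that stimuli also induce, was lower, at 459 and 539 in *Mef2c*-deficient against 1302, 984 and 1486 in control pro-B cells (log2 fold change −1.32, standard error 0.29, limma adjusted p = 0.106). The *Per1* call was lost in 5 of 15 alternatives, the further quantile normalization (−0.99), cyclic loess (−0.86), centring on housekeeping genes (−0.55), the fold of 2 in signal and the replicate block (−1.19). *Ier5* was higher, at 3568 and 3554 in *Mef2c*-deficient against 1357, 1762 and 1206 in control pro-B cells (log2 fold change 1.32, standard error 0.27, limma adjusted p = 0.103). *Ccn1*, which encodes a secreted matrix protein, was higher, at 425 and 365 in *Mef2c*-deficient against 47.4, 155 and 63.2 in control pro-B cells, where it was below the array median (log2 fold change 2.35, standard error 0.57, limma adjusted p = 0.108). The *Ccn1* call was lost with array weights (2.48) and without *Mef2c*-deficient replicate 1 (2.24) or *Mef2c*-deficient replicate 2 (2.45), and that of *Ier5* at a fold of 2 in signal. For each of these 4 genes the 2 groups did not overlap, as held for 23.5% of all probe sets in the lower and 27.5% in the higher direction. *Tnfaip3*, an inhibitor of NF-kB signalling, was not called at −1.67 and was low on 1 array, at 930.2 on *Mef2c*-deficient replicate 2 against 14698 on *Mef2c*-deficient replicate 1 and 10452, 10452 and 14983 in control pro-B cells.

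Of 12 measured regulators of these promoters, of 13 listed, 2 were called lower, 1 higher and 9 not, with a median log2 fold change of −0.54. *Srf*, which encodes serum response factor, was lower, with 1659.8 and 1430.3 in *Mef2c*-deficient against 4542, 4542 and 5812 in control pro-B cells. Its log2 fold change was −1.68 (standard error 0.25, limma adjusted p = 0.102). The call was lost after a further quantile normalization, after cyclic loess and with centring on housekeeping genes, with the log2 fold change nearest to 0 after cyclic loess, at −0.76. *Crtc3*, a coactivator of CREB, was lower, with 535 and 371 in *Mef2c*-deficient against 1362, 1376 and 1271 in control pro-B cells (log2 fold change −1.58, standard error 0.27, limma adjusted p = 0.102). *Elk4*, a ternary complex partner of serum response factor, was higher, with 21657 and 21646 in *Mef2c*-deficient against 7261, 6644 and 15299 in control pro-B cells (log2 fold change 1.26, standard error 0.44, limma adjusted p = 0.149). The *Elk4* call was kept in 7 of 15 alternatives, and it was lost with median centring, the fold in signal, array weights and the unpaired test, and without control replicate 1 (1.103) or 2 (1.04), *Mef2c*-deficient replicate 1 (1.26) or *Mef2c*-deficient replicate 2 (1.26). That of *Crtc3* was lost with centring on housekeeping genes (−0.82). The partners *Elk1* and *Elk3*, at 1.64 and −1.83, were not called. *Creb1* was not called at −1.06, nor were *Crebbp* and *Ep300*, which encode acetyltransferases, at −0.48 and −0.22.

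Among the MEF2 factors and class IIa histone deacetylases, all 8 measured, 2 were called lower and 0 higher. *Hdac9* had 1008 and 916 in *Mef2c*-deficient against 5350.0, 7262 and 5168 in control pro-B cells, with a log2 fold change of −2.61 (standard error 0.27, limma adjusted p = 0.102), and its call was kept in all 15 alternatives. *Mef2c* was the other, at −1.34 (standard error 0.28, limma adjusted p = 0.103), and lost the call in 5 alternatives, the further quantile normalization (−0.43), cyclic loess (−0.32), centring on housekeeping genes (−0.57), the fold in signal and array weights (−1.26). *Mef2d* and *Mef2a*, which encode the related factors, were not called at −1.10 and −0.59. *Hdac4*, *Hdac5* and *Hdac7* were not called either, at 0.47, −0.26 and −0.62.

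Of 12 AP-1 partners and relatives, all measured, 2 were called lower and 0 higher. *Atf2*, which pairs with JUN, had 1553 and 804 in *Mef2c*-deficient against 4348, 4700.0 and 4191 in control pro-B cells (log2 fold change −1.98, standard error 0.35, limma adjusted p = 0.102), and its call was kept in all 15 alternatives. *Atf7*, its closest relative, had 818 and 489 in *Mef2c*-deficient against 2169.6, 1930.0 and 5992 in control pro-B cells (log2 fold change −2.21, standard error 0.61, limma adjusted p = 0.117). The *Atf7* call was lost with array weights (−1.86), with the unpaired test and without *Mef2c*-deficient replicate 1 (−2.58) or *Mef2c*-deficient replicate 2 (−1.84). *Jund*, a JUN gene that cells express without stimulation, was not called, with 278431 and 175992 in *Mef2c*-deficient against 182238, 158177 and 133356 in control pro-B cells. *Jdp2* was not called either, at 769 and 5704 in *Mef2c*-deficient against 1269, 1975 and 420.4 in control pro-B cells. The median of the 12 genes was 0.24.

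The dual-specificity phosphatases besides *Dusp1*, all 9 measured, had 1 gene called lower and 1 higher. *Dusp7*, an ERK phosphatase, had 491 and 938 in *Mef2c*-deficient against 1296, 1475 and 1637 in control pro-B cells (log2 fold change −1.11, standard error 0.36, limma adjusted p = 0.137), and the call was lost in 10 of 15 alternatives, among them without control replicate 1 (−1.19), 2 (−1.10) or 3 (−1.03) or *Mef2c*-deficient replicate 1 (−0.64). *Dusp14* had 317 and 181 in *Mef2c*-deficient and 93.3 on each of the control arrays, a dim level shared by ties (log2 fold change 1.36, standard error 0.32, limma adjusted p = 0.107), and its call was lost without *Mef2c*-deficient replicate 1 (0.96), after cyclic loess (0.89) and at the fold in signal. *Dusp2* and *Dusp5*, neither of them called, were lowest on *Mef2c*-deficient replicate 2, at 1718 and 1342, against 16711 and 11206 on *Mef2c*-deficient replicate 1, but control replicate 3, at 11352 and 5171, was not below the other control arrays. The *Fos* pattern was thus not shared by these 2 phosphatase genes.

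Heat shock genes, which stress induces together with immediate early genes, had 4 of 10 measured members of 11 listed called lower and 1 higher, with a median of −1.31. *Hsph1* had 3342 and 3918 in *Mef2c*-deficient against 13414, 12881 and 18835 in control pro-B cells (log2 fold change −2.03, standard error 0.29), and its call was kept in all 15 alternatives. *Hspd1*, which encodes a mitochondrial chaperonin, had 43921 and 29047 in *Mef2c*-deficient against 190687, 120212 and 136381 in control pro-B cells (log2 fold change −2.03, standard error 0.34). Both had a limma adjusted p of 0.102. *Hsp90aa1* was higher, at 535 and 622 in *Mef2c*-deficient against 189, 203 and 135 in control pro-B cells (log2 fold change 1.74, standard error 0.29, limma adjusted p = 0.102). Of 9 measured housekeeping genes of 12 listed 5 were called lower and 0 higher, with a median of −1.03. Beside each of these lists stand the shares over all probe sets, 13.5% lower and 10.1% higher. These shares varied with brightness. In groups 9 and 10 of rising mean intensity 38.5% and 31.8% were called lower and 0.63% and 0.25% higher, against 0.084% and 10.4% in group 1. The lists were not matched for brightness. Over all settings, the main one included, the number called lower ran from 2 to 6 for heat shock genes, 0 to 5 for housekeeping genes, 1 to 6 for other immediate early genes, 0 to 3 for the promoter regulators, 1 to 3 for MEF2 factors and deacetylases, 1 to 2 for AP-1 relatives and 0 to 2 for the phosphatases and for the EGR and NR4A relatives. The number called higher ran from 1 to 7 for other immediate early genes, 0 to 6 for the phosphatases, 0 to 4 for AP-1 relatives, 1 to 3 for heat shock genes, 0 to 3 for the EGR and NR4A relatives and 0 to 2 for the promoter regulators, for MEF2 factors and deacetylases and for housekeeping genes.

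The fold changes of most immediate early genes moved across 0 when 1 array was left out. *Nr4a1* and *Egr1* were negative in all 15 alternatives, *Egr1* between −2.20 and −0.55, though some alternatives leave the fold change unchanged. For *Nr4a1*, whose groups did not overlap, only the other scalings of the arrays could have changed the sign. *Fos* ranged from −6.77 without *Mef2c*-deficient replicate 1 to 1.94 without *Mef2c*-deficient replicate 2, and *Fosb* from −5.39 to 1.64 without the same arrays. *Egr2* ranged from −4.08 without *Mef2c*-deficient replicate 2 to 0.30 without *Mef2c*-deficient replicate 1. *Jun* ranged from −1.98 to 1.03, *Dusp1* from −2.39 to 0.77, *Atf3* from −0.62 to 1.31, *Junb* from −0.78 to 0.72 and *Ier2* from −0.33 to 1.33. The sign of the 8 genes other than *Nr4a1* and *Egr1* changed with the scaling, the fit or the array left out, so their direction could not be read. For *Egr1* the kept sign did not establish a direction either. *Egr1* was not called, its groups overlapped and its confidence interval ran from −3.43 to 0.32.

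**Figure D4:**
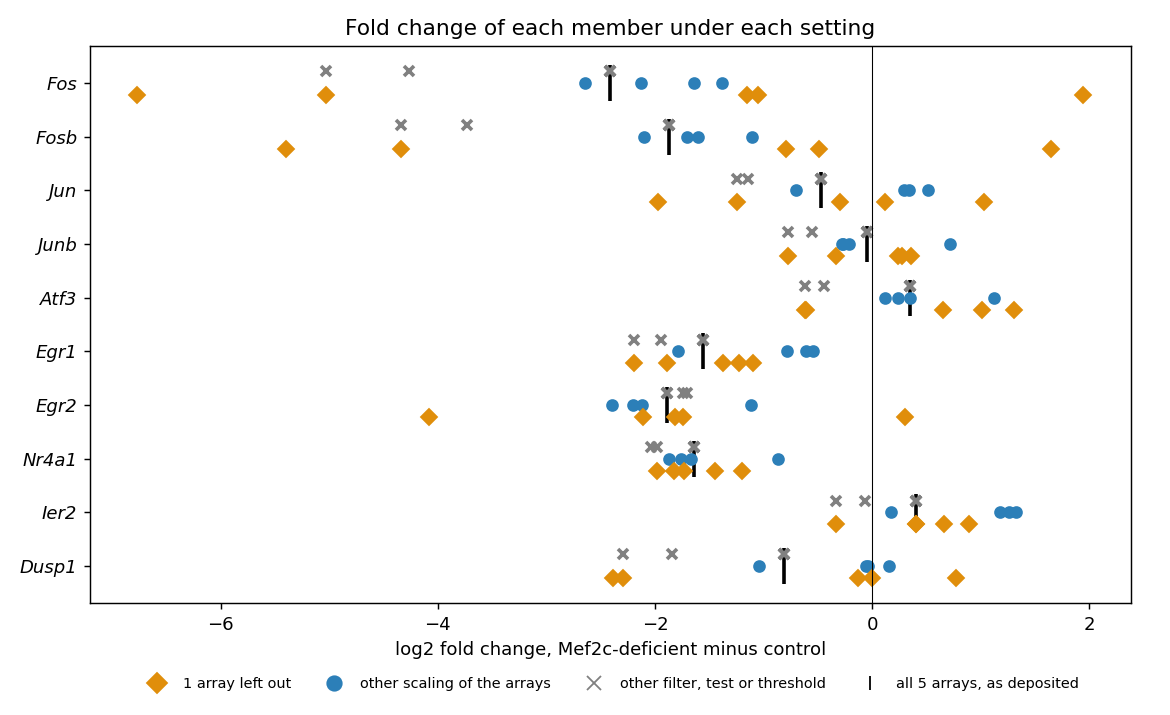
Log2 fold change, *Mef2c*-deficient minus control (horizontal axis), of each immediate early gene (rows) with all 5 arrays as deposited (black bar), with 1 array left out (orange), with other scalings of the arrays (blue) and with other filters, tests or thresholds (grey crosses). All points of *Nr4a1* (−2.04 to −0.87) and *Egr1* (−2.20 to −0.55) lie left of 0, and those of *Fos* run from −6.77 to 1.94.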

How the data were processed

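RNA of sorted pro-B cells was hybridised to 5 Affymetrix mouse arrays, 2 *Mef2c*-deficient and 3 control. The authors made the deposited intensities by robust multiarray averaging (RMA), dropped probe sets called absent or marginal in over 4 replicates and gave the values on a linear scale. Their natural logarithms run from 1.15 to 14.66, and 314 to 430 intensities per array exceed 65535, the largest signal of a 16-bit scanner, which is why the base appears to be e. Probe sets were dropped by detection call and not by intensity, so some genes have no value while dim values remain. The number of arrays limits the precision.

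Of 23835 probe sets, 26 Affymetrix controls were left out. Log2 intensities of the other 23809 were fitted with limma 3.58.1 in R 4.3.3 (lmFit, eBayes), *Mef2c*-deficient minus control, with Benjamini-Hochberg adjustment over all probe sets, and the procedure was tested on simulated data. A call required a 2-fold change or more in deposited intensity together with an unadjusted p no higher than 0.05. Lists used 1 probe set per gene, that with the highest mean. The 10 genes and the lists were chosen with earlier results of these data known.

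Named were all 10 genes, up to 4 called genes per list by smallest p, up to 2 others by fold size, and the 5 genes nearest to *Nr4a1* and to *Fos*. *Jund*, *Creb1*, *Crebbp*, *Ep300*, *Mef2a*, *Hdac4*, *Hdac5*, *Dusp5*, *Ppp1r15a* and single markers were named after their values were seen. Promoter sequences and positions come from RefSeq (GRCm38.p6), and motifs were counted on both strands in windows of 300 bases. Alternatives were 4 other scalings, a filter on dim probe sets, 1 probe set per gene, a fold threshold in signal, array weights, the unpaired test of the methods, a replicate block and each array left out.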

Additional observations from a re-analysis of the deposited data

Results flagged for a closer look

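Probes for control RNA, added to each hybridisation and not part of any comparison, read higher on the *Mef2c*-deficient arrays. The 15 control probe sets were picked by the names of bacterial bio genes and of Cre. Cre is also the transgene of the *Mef2c*-deficient and of some possible control mice, and probe sets named for it were not read apart. The median log2 deviation of the 15 from their mean over the 5 arrays was 1.97 on *Mef2c*-deficient replicate 1 and 0.12 on *Mef2c*-deficient replicate 2. On control replicates 1, 2 and 3 it was −0.43, −0.049 and −1.58. *Fos* was high on *Mef2c*-deficient replicate 1 and low on control replicate 3, which had the highest and the lowest of these medians, but it was also low on *Mef2c*-deficient replicate 2 and high on control replicates 1 and 2, whose medians lay between them. The part of these differences in the *Nr4a1* and *Fos* values was not tested.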

How the results depend on the processing

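*Nr4a1* and *Egr1* kept a negative log2 fold change in each of the 15 alternatives. With dim probe sets left out, 1 probe set per gene, a fold in signal or the unpaired test, the fold change is that of the main fit. No sign could change there. For *Nr4a1*, whose groups did not overlap, array weights, the replicate block and leaving out 1 array could not change it either. The replicate block gave the same fold changes as the fit without control replicate 3, so it was no separate check of direction. Over the 149 alternative values of the 10 genes, all of these included, 118 kept their direction and side of the threshold. A further 21 changed sign, 6 lost and 4 gained a call, and the cause was not tested. The sign changed for *Jun* with quantile normalization repeated (0.34), with cyclic loess (0.52) and when arrays were centred on housekeeping genes (0.29), for *Junb* with housekeeping centring (0.72), for *Dusp1* after cyclic loess (0.16), for *Atf3* with array weights (−0.45) and the replicate block (−0.62), and for *Ier2* with array weights (−0.062) and the replicate block (−0.33). Without *Mef2c*-deficient replicate 2 it changed for *Fos* (1.94), *Fosb* (1.64), *Dusp1* (0.77), *Jun* (1.03) and *Junb* (0.24), and the median of the 10 genes was 0.59. Without *Mef2c*-deficient replicate 1 it changed for *Egr2* (0.30) and *Atf3* (−0.61), without control replicate 1 for *Jun* (0.12) and *Junb* (0.28), without control replicate 2 for *Junb* (0.36) and without control replicate 3 for *Atf3* (−0.62) and *Ier2* (−0.33). With 1 array left out the log2 fold change ran up to 1.31 for *Atf3* and 0.89 for *Ier2*, and down to −6.77 for *Fos*, −5.39 for *Fosb*, −4.08 for *Egr2*, −2.39 for *Dusp1*, −1.98 for *Jun* and −0.78 for *Junb*.

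Of the 10 genes, 2 were called lower under median centring and under the replicate block, *Nr4a1* and *Egr1* in both, and 0 under array weights, the unpaired test or housekeeping centring, with a range of 0 to 2 with 1 array left out. Probe sets called lower numbered 3206 with all arrays as deposited, 1832 after a further quantile normalization and 1832 after cyclic loess, 767 with housekeeping centring, 2025 at a fold of 2 in signal and 1934 by the unpaired test, and 2163 to 3661 with 1 array left out. Probe sets called higher numbered 2401, and 1591 after cyclic loess, 1558 with centring on the array median, 10619 with housekeeping centring, 576 with dim probe sets left out, 1089 in signal, 1460 with array weights, 1368 by the unpaired test, 1022 with the replicate block and 1404 to 4389 with 1 array left out. Lower calls made up 57.2% of all calls, 75.1% with centring on the array median and 6.74% with housekeeping centring, which moved the median log2 fold change of all probe sets from 0.19 to 0.96. *Egr2* was left out with the dim probe sets.

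The replicate numbers do not pair the arrays by any label. Deviations from the group means correlated at 0.105 for number 1 and −0.031 for number 2, and with the replicate block, in which control replicate 3 has no partner, 2184 probe sets were called lower, 1022 higher and the log2 fold change of *Nr4a1* was −1.98. Background may limit the fold of *Nr4a1*, *Egr2*, *Fosb*, *Atf3*, *Junb* and *Fos*, each below the array median on at least 1 array, and this was not tested.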
